A study of Mus musculus with 22 samples.

Results

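The 31 genes described here encode cell adhesion molecules of the mouse: 14 integrin alpha subunits, 7 integrin beta subunits, the immunoglobulin-type receptors Icam1, Icam2, Vcam1, Pecam1, F11r, Jaml and Alcam, the selectin Selp, the hyaluronan receptor Cd44 and the signalling partner Cd47. They were chosen by symbol, as the rows of the deposited count tables that carry one of these names. Of 35255 gene identifiers in any of the 3 tables, 31 were members. All 31 had a row in the hypoxia and tumor tables, and 29 had one in the normoxia table, where Itga9 and Itgb8 have no row.

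RNA was sequenced in 22 libraries from cells with a knockout (KO) of VISTA, the immune checkpoint protein encoded by Vsir, and from wild-type (WT) cells, all given as C57BL/6N background. Normoxia cultures (4 KO and 4 WT libraries) were myeloid progenitors of the bone marrow grown with the growth factors GM-CSF and IL-6 and taken at day 4 as myeloid-derived suppressor cells. Hypoxia cultures (4 KO and 4 WT libraries) were bone marrow myeloid cells labelled with a time of 24 hours. Tumor samples (3 KO and 3 WT libraries) were labelled as MC38 tumor tissue at day 7, where MC38 is a mouse colon carcinoma line. The name under which their counts were deposited speaks of MDSC (myeloid-derived suppressor cells), so whether they are whole tissue or sorted cells is not settled. Beside oxygen and the growth factors of the normoxia cultures, no treatment is named for any group. The labels do not describe the KO allele, the cell types it covers or any purification from the tumors. Separate cultures are stated for the normoxia experiment alone, so p-values elsewhere measure the spread between these samples, which may be technical.

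Integrins are pairs of 1 alpha and 1 beta subunit that hold a cell to matrix proteins or to receptors on other cells. They are kept inactive until signals inside the cell drive talin and kindlin onto the beta tail. On myeloid cells the beta2 integrins LFA-1 (Itgal with Itgb2) and Mac-1 (Itgam with Itgb2) bind ICAM proteins on the vessel wall, VLA-4 (Itga4 with Itgb1) binds VCAM-1, and selectins start the contact by binding sugars on passing cells. Junctional molecules such as JAM-A (F11r) then help leukocytes pass between cells, and CD47 tells phagocytes not to engulf its bearer.

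Vsir itself was at 139 to 242 CPM (reads of a gene relative to the total of its library, scaled by TMM factors) in KO and 651 to 856 CPM in WT normoxia cultures, at 113 to 163 against 512 to 611 CPM in hypoxia, and at 113 to 128 against 427 to 480 CPM in tumors. Libraries held 23409142 to 23722932 counts in KO and 23486727 to 23667396 in WT normoxia cultures, and 30839108 to 30911687 against 31060342 to 31385825 in hypoxia. Tumor libraries held 19119985 to 23089943 counts in KO and 27452024 to 31716200 in WT. On the first principal component of the normoxia cultures, which carried 53.1% of the variance, KO4 was at -50.2 and the other KO libraries between -24 and -7, while WT3 was at 10.6 and the other WT libraries between 24.2 and 34.7. On the second component (15.2%) WT3 had the lowest score, at -24.1, and KO4 the next, at -14.6. Normoxia results are therefore also given without KO4 and WT3, a pair that an earlier analysis of these data had picked out. Summed over 6 genes that mark myeloid cells, among them Ptprc and Lyz2, levels were 10300 to 16700 CPM in KO and 7860 to 11700 CPM in WT normoxia cultures, 5900 to 8600 against 5920 to 7990 CPM in hypoxia, and 19700 to 24000 against 13700 to 18900 CPM in tumors.

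Adhesion genes were called higher or lower in VISTA KO in each setting, with most calls in hypoxia in the main test, which used no pairing. With same-numbered libraries treated as a block, tumor calls came close in number to those in hypoxia, as given in the closing section. Whether the tumor samples are paired was not settled, so tumor values given below as not called rest on the unpaired test. A gene was called where the adjusted p of edgeR's quasi-likelihood test, corrected over all genes tested by the Benjamini-Hochberg method, was under 0.05. In normoxia, 3 of 23 members tested were higher in KO cultures and 3 were lower, beside 7.13% and 4.17% of all genes tested. In hypoxia, 11 of 27 were higher and 6 were lower, beside 17.4% and 17.6% of all genes. In tumors, 1 of 26 was higher and 3 were lower, beside 3.28% and 3.04%. The same shares of all genes stand beside the KO counts of the other gene and marker lists below. The median log2 fold change of the members tested, KO over WT, was 0.15 in normoxia (-0.02 over all genes), 0.18 in hypoxia (-0.01) and -0.08 in tumors (0.01). Scaled by library size alone, the median over all genes in normoxia became -0.11 and the split of all calls moved from 995 higher and 582 lower to 726 higher and 951 lower. The split of the members' calls in normoxia was 3 and 3 under that scaling too, and without KO4 and WT3 it was 4 and 4. The 6 member calls in normoxia became 3 without WT1 or without WT4, and the 4 in tumors became 8 without KO3.

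Of the 31 members, 18 were called in at least 1 of the KO comparisons, 7 in 2 of them, and F11r alone in all 3, where its tumor call depends on the filter on low counts. Selp was the 1 member higher in both kinds of culture, Itgb1, Icam1 and F11r were the 3 lower in both, and Itgae was called higher in normoxia and lower in hypoxia. The remaining 13 members were called in no KO comparison, and 3 of these (Itga3, Itgad and Itgb8) were under the count filter in every one. No matching share of all genes is given for counts over several comparisons, so they describe the members alone. In hypoxia by itself 17.4% of all genes were higher and 17.6% lower.

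**Figure D1:**
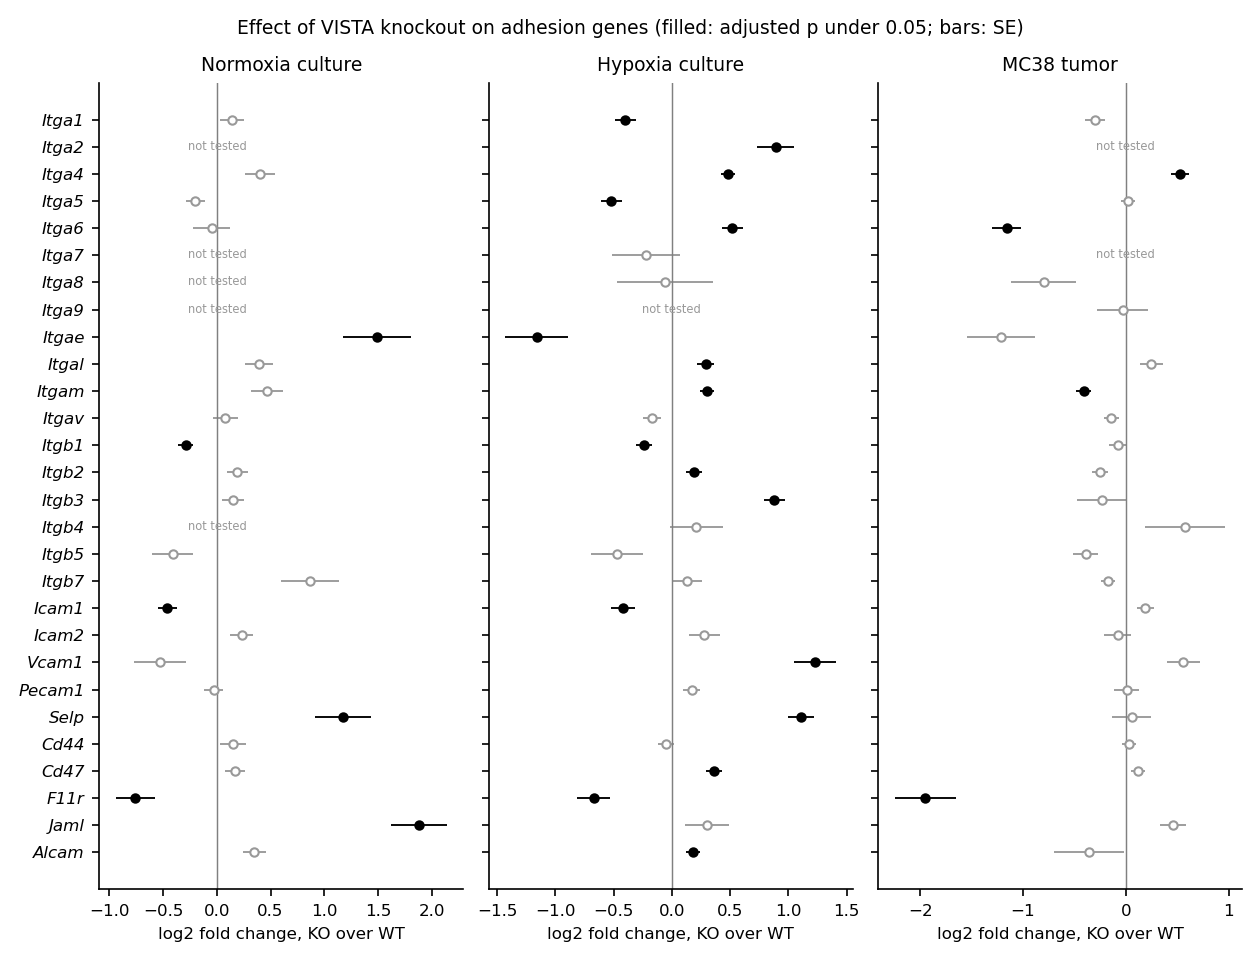
Log2 fold change, KO over WT, of each adhesion gene tested in normoxia cultures, hypoxia cultures and MC38 tumor samples, with bars for the standard error; filled points passed the edgeR test at an adjusted p under 0.05. F11r lies left of 0 with a filled point in all 3 panels, and Itgae is filled right of 0 in normoxia (1.49) and left of 0 in hypoxia (-1.16).

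The promoters of the 4 members called in the same direction in both kinds of culture are shown because these genes differed by genotype under both oxygen conditions. Each is the stretch of 250 bases before the RefSeq start (GRCm38.p6, plus strand, 5′ to 3′), except that of F11r. The F11r stretch was cut to 224 bases, to end at the base before the GENCODE gene start. The Icam1 stretch ends before a RefSeq start that is upstream of the GENCODE start (21015985). Capitals mark matches to TTCNNNGAA, the pattern bound by STAT factors, or to GGNNNTTCC, a pattern of NF-kappaB, searched on both strands. F11r (chr1:171437311-171437534), Icam1 (chr9:21015690-21015939), Itgb1 (chr8:128685404-128685653) and Selp (chr1:164115014-164115263) read as follows.
F11r: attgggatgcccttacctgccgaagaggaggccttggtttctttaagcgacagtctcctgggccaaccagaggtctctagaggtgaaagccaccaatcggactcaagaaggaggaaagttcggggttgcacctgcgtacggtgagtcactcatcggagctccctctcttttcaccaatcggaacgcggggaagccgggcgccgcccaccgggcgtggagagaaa
Icam1: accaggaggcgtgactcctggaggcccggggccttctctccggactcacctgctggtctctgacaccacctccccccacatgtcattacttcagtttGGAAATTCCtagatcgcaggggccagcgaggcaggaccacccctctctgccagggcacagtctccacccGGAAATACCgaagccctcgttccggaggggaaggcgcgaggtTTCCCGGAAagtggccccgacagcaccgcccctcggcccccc
Itgb1: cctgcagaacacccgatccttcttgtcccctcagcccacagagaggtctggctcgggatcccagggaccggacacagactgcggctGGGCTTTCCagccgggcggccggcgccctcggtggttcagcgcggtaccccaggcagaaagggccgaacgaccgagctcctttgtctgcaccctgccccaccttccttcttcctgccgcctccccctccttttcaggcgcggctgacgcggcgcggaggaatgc
Selp: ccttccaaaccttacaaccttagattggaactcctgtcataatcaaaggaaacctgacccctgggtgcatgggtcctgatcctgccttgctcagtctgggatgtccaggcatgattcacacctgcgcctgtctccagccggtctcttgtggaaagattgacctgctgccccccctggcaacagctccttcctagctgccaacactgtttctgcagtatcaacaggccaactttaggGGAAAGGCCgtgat

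Positions below are counted from the RefSeq start. The Icam1 stretch held 2 NF-kappaB matches, at -153 to -145 and -84 to -76, and 1 STAT match at -42 to -34. Itgb1 and Selp held 1 NF-kappaB match each, at -164 to -156 and -14 to -6, and the F11r stretch held neither pattern. The pattern GAGGAA of the myeloid factor PU.1 stood at -140 to -135 in F11r and at -9 to -4 in Itgb1. For F11r the RefSeq start lies past the end of the printed stretch, so this position is not counted from that end. Over all 32851 promoters of the table, 7.02% held the STAT pattern, 15.7% the NF-kappaB pattern and 23.3% the PU.1 pattern within 250 bases, and of the 20 members with a promoter there 1, 5 and 8 did. The letters AGATAA of GATA factors stood in 9.99% of all promoters and in 1 of the 20, and the hypoxia response letters ACGTG in 16.6% and in 3.

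In hypoxia the beta2 integrin chains Itgam, Itgal and Itgb2 were higher in KO, while Itgax, a further alpha chain that pairs with Itgb2, was lower. Itgax is no member and was named after its values were seen, with 39.9 ± 10.7 CPM in KO and 73.3 ± 9.31 CPM in WT hypoxia cultures (SD, n = 4 each, -0.88, edgeR adjusted p = 0.00403) and no call in normoxia (0.12) or tumors (0.14). Itgam, the alpha chain of Mac-1 and a marker of myeloid cells, had 616, 560, 573 and 547 CPM in KO and 456, 500, 457 and 450 CPM in WT hypoxia cultures. All KO libraries lay above all WT libraries, with a log2 fold change of 0.30 ± 0.06 (SE) and an edgeR adjusted p of 0.00361. Tumors went the other way, with 248, 258 and 279 CPM in KO and 354, 340 and 349 CPM in WT samples, again without overlap (-0.41 ± 0.07, edgeR adjusted p = 0.00373). Normoxia KO cultures ranged from 433 to 721 CPM and overlapped the WT range of 368 to 436 CPM (0.47, edgeR adjusted p = 0.0648). Itgam shares 3450 exon bases, 68.7% of its exon length, with Gm49368 on the same strand. Gm49368 held 331 counts in normoxia, 761 in hypoxia and 86 in tumors, against 88033, 128706 and 47335 for Itgam, and reads common to both could have been left out of either.

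Itgal, the alpha chain of LFA-1, had 349, 338, 331 and 307 CPM in KO and 265, 287, 248 and 287 CPM in WT hypoxia cultures. The groups did not overlap (0.29 ± 0.07, edgeR adjusted p = 0.00717), while the changes in normoxia (0.39) and tumors (0.25) did not pass. Itgb2, the beta chain shared by both receptors, had 1300, 1240, 1170 and 1120 CPM in KO and 1050, 1110, 1060 and 1020 CPM in WT hypoxia cultures. Every KO library was above every WT library, but by a small margin (0.19 ± 0.07, edgeR adjusted p = 0.0402). The Itgb2 call was lost without any 1 of KO1, KO2, KO3, WT1, WT3 or WT4 (adjusted p up to 0.12), and with scaling by library size alone. It did not pass in normoxia (0.19) or in tumors (-0.25), where KO samples had 1380 to 1580 CPM and WT samples 1650 to 1830 CPM. Itgad, a further partner of Itgb2, stayed between 0 and 15 counts per library in all experiments and was not tested.

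Neutrophils carry beta2 integrins, and their markers were higher in hypoxia KO cultures beside these genes. In tumors the neutrophil sums were higher in KO as well, while Itgam was called lower (-0.41). The 10 markers summed to 47500 to 58100 CPM in KO and 23300 to 31100 CPM in WT hypoxia cultures, and 9 of 10 were called higher. In normoxia the sums were 41600 to 62500 CPM in KO and 29400 to 40000 CPM in WT (7 of 10 called higher), and in tumors 347 to 403 against 274 to 306 CPM with Camp at 0 in both genotypes and Ngp at 0 in WT. The macrophage and monocyte markers were higher in KO in normoxia without overlap (3310 to 3530 CPM in KO, 2680 to 3290 CPM in WT), with C1qa, C1qb and C1qc called higher of 10. They overlapped in hypoxia (2640 to 3030 CPM in KO, 2480 to 2840 CPM in WT) and in tumors (10800 to 11600 CPM in KO, 11300 to 12100 CPM in WT). Eosinophils carry beta2 integrins and Itga4, and their 9 markers summed to 2230 to 3970 CPM in KO and 1130 to 1800 CPM in WT hypoxia cultures, with 9 of 9 called higher. In normoxia the eosinophil sums were 131 to 192 CPM in KO and 98.4 to 129 CPM in WT (4 of 7 tested called higher), and in tumors 3.54 to 4.71 CPM in KO and 3.5 to 7.14 CPM in WT with Prg3, Epx and Ear6 at 0. The part of cell composition in the integrin values was not tested, and in bulk RNA fewer cells of a type and less RNA per cell cannot be told apart.

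**Figure D2:**
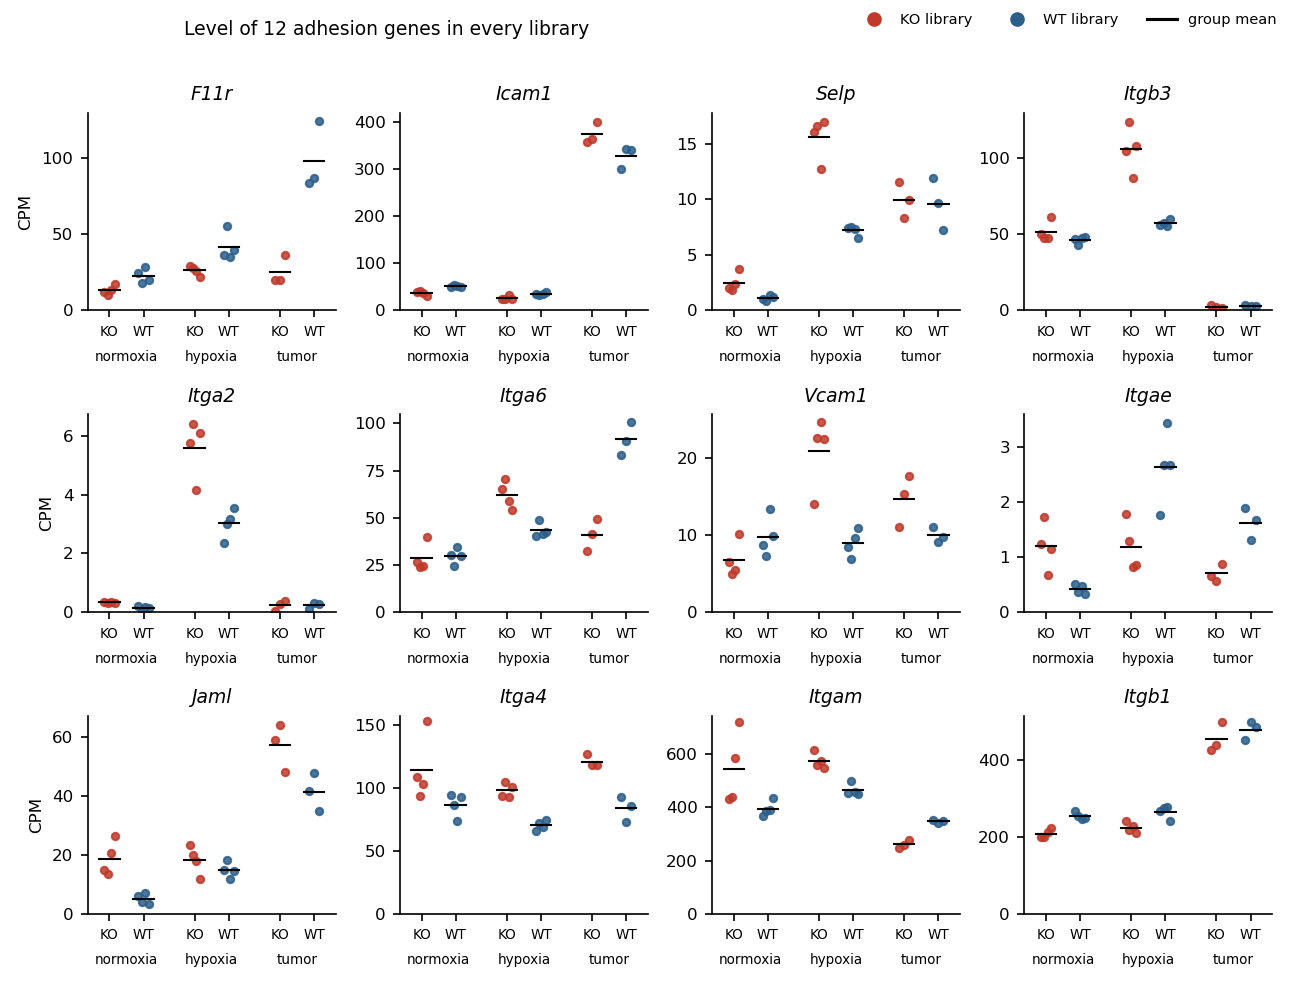
Level in CPM (linear axis) of 12 adhesion genes in every library, KO in red left of WT in blue for normoxia, hypoxia and tumor, with lines at the group means; each experiment was scaled alone. The 4 KO points of Itgb3 in hypoxia lie between 87.1 and 124 CPM, above all WT points (55.8 to 60.4 CPM), and the KO points of F11r lie below the WT points in each experiment.

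Itgb1, the beta chain of most matrix receptors, was lower in KO cultures under both oxygen conditions, by a small amount. It had 200, 199, 212 and 224 CPM in KO and 268, 254, 248 and 249 CPM in WT normoxia cultures (-0.29 ± 0.07, edgeR adjusted p = 0.0331). In hypoxia it had 241, 218, 230 and 210 CPM in KO and 268, 275, 278 and 243 CPM in WT cultures (-0.24 ± 0.07, edgeR adjusted p = 0.0154). No KO library reached a WT library in either experiment. The normoxia call was lost without any 1 of KO1, KO2, KO3, WT1, WT2 or WT4 (adjusted p up to 0.11), the hypoxia call without KO2 (adjusted p = 0.0501), and without KO4 and WT3 the normoxia value was -0.34. Tumor samples ranged from 427 to 499 CPM in KO and from 452 to 501 CPM in WT (-0.08, not called).

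The alpha chains that pair with Itgb1 did not follow it as a set. Itga4, the chain of the VCAM-1 receptor VLA-4, was higher in hypoxia KO cultures, with 93.5, 105, 93.1 and 101 CPM in KO and 66.1, 72.1, 68.6 and 74.5 CPM in WT. The groups did not overlap, beside the eosinophil markers given above (0.48 ± 0.06, edgeR adjusted p = 0.000268). It was also higher in KO tumors, at 127, 118 and 118 CPM against 93.0, 73.0 and 85.6 CPM in WT tumors (0.53 ± 0.09, edgeR adjusted p = 0.00379). Itga4 was the only member called higher in tumors, and its normoxia value of 0.40 did not pass (edgeR adjusted p = 0.0885). It shares 1124 exon bases with Cerkl on the other strand, and without a stated strand setting the reads of such opposite genes cannot be told apart. Cerkl held 102, 127 and 223 counts in the 3 experiments, against 18895, 20818 and 15118 for Itga4.

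Itga6, which forms laminin receptors with Itgb1 or Itgb4, was called in opposite directions in hypoxia and in tumors. Tumor KO samples had 32.3, 41.3 and 49.4 CPM and tumor WT samples 83.4, 90.9 and 101 CPM. All KO samples were below all WT samples (-1.16 ± 0.14, edgeR adjusted p = 0.00105), and the call held with each sample left out in turn. In hypoxia KO cultures ranged from 54.0 to 70.4 CPM and WT cultures from 40.3 to 48.8 CPM (0.52 ± 0.09, edgeR adjusted p = 0.00137), and in normoxia the value was -0.05. The difference between the tumor and hypoxia effects was not tested.

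Itga5, the fibronectin receptor chain, and Itga1, a collagen receptor chain, were lower in hypoxia KO cultures. Itga5 had 63.0, 58.4, 66.8 and 50.9 CPM in KO and 80.7, 93.0, 79.9 and 88.9 CPM in WT (-0.52 ± 0.09, edgeR adjusted p = 0.00105). Itga1 had 107, 93.8, 96.5 and 87.9 CPM in KO and 117, 147, 115 and 128 CPM in WT (-0.40 ± 0.09, edgeR adjusted p = 0.00493). Neither gene overlapped between genotypes in hypoxia. Their normoxia values were -0.20 for Itga5 and 0.14 for Itga1, and their tumor values 0.02 and -0.30, none of which passed. Itga1 shares 685 exon bases with Gm49395 on the same strand, which held at most 210 counts in an experiment.

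Itga2, the other collagen receptor chain and one that platelets carry, was higher in hypoxia KO cultures; it neighbours Itga1 on chromosome 13 (114833081 to 114932100, minus strand, GRCm38). It had 5.77, 6.43, 4.15 and 6.11 CPM in KO and 2.36, 3.01, 3.18 and 3.54 CPM in WT, with no overlap (0.89 ± 0.16, edgeR adjusted p = 0.00189). In normoxia it held 30 counts over the KO libraries and 14 over the WT libraries, and in tumors 14 in KO and 21 in WT, which is under the filter. Itgb3, the beta chain of the platelet fibrinogen receptor and of the vitronectin receptor, changed by nearly as much at a higher level. It had 105, 124, 87.1 and 108 CPM in KO and 55.9, 57.5, 55.8 and 60.4 CPM in WT hypoxia cultures (0.88 ± 0.09, edgeR adjusted p = 4.55e-05). WT libraries were tightly grouped and every KO library lay above them, and the call held with each library left out in turn. In normoxia KO cultures had 47.4 to 61.6 CPM and WT cultures 43.3 to 48.1 CPM (0.15), and tumors held 1.86 to 3.40 against 2.90 to 3.29 CPM (-0.23), neither called.

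Platelet and megakaryocyte markers rose with these genes in hypoxia. The 9 markers, among them Pf4 and Gp9, summed to 144 to 239 CPM in KO and 73.1 to 97.8 CPM in WT hypoxia cultures, and 8 of the 8 tested were called higher. Itga2b, the platelet partner of Itgb3 and not a member, had 98.1 ± 18.1 CPM in KO and 51.5 ± 4.24 CPM in WT (SD, n = 4 each). In normoxia the sums were 4.96 to 9.49 CPM in KO and 2.74 to 6.28 CPM in WT, with 1 of 3 tested called higher. In tumors they were 31.5 to 71.9 CPM in KO and 66.6 to 137 CPM in WT, with Gp1bb and Gp5 among those at 0 and none of 2 tested called. The part of these cells in the values of Itga2, Itgb3, Itga6 and Selp was not tested.

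Itgae, the alpha chain of the E-cadherin receptor CD103, was the member with opposite calls in the cultures. In hypoxia it had 1.77, 1.29, 0.817 and 0.846 CPM in KO and 1.76, 2.66, 3.43 and 2.66 CPM in WT. KO1 lay just above the lowest WT library, so the groups touched (-1.16 ± 0.27, edgeR adjusted p = 0.00648). In normoxia it had 1.23, 1.72, 0.670 and 1.15 CPM in KO and 0.517, 0.368, 0.467 and 0.332 CPM in WT, without overlap (1.49 ± 0.32, edgeR adjusted p = 0.0148). The normoxia call was lost without WT4 (adjusted p = 0.0519) and was 1.56 without KO4 and WT3. Tumor samples had 0.566 to 0.877 CPM in KO and 1.31 to 1.88 CPM in WT (-1.21, edgeR adjusted p = 0.051). Counts were low throughout, at 8 to 41 per library in normoxia, 25 to 110 in hypoxia and 12 to 56 in tumors.

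CD103 is known on dendritic cells, mast cells and T cells, and markers of these stood as follows. The 8 dendritic markers summed to 67.6 to 120 CPM in KO and 33.5 to 69.1 CPM in WT normoxia cultures (1 of 6 tested called higher), to 93.9 to 224 against 147 to 241 CPM in hypoxia, and to 2340 to 3320 against 1410 to 1910 CPM in tumors (3 of 8). Most of these sums was H2-Aa in hypoxia and tumors, and in hypoxia Cd209a (1.19), Clec9a (1.28) and Clec10a (0.71) were called higher in KO and no dendritic marker lower. Mast cell and basophil markers summed to 93.4 to 129 CPM in KO and 44.5 to 64.2 CPM in WT normoxia cultures (7 of 7 tested called higher, Cma1 at 0), to 739 to 1070 against 477 to 738 CPM in hypoxia (8 of 9), and to 27.2 to 41.0 against 14.2 to 26.7 CPM in tumors (none of 4). T and NK cell markers summed to 20.6 to 33.0 CPM in KO and 19.3 to 25.7 CPM in WT normoxia cultures (none of 2 tested called), and to 36.3 to 43.3 against 21.3 to 26.7 CPM in hypoxia, where 2 of 4 were called higher. In tumors they summed to 17.3 to 24.8 CPM in KO and 40.4 to 74.8 CPM in WT, with 4 of 9 tested called lower, and Trac was at 0 throughout. Their part in the values of Itgae was not tested.

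Itgb7, the partner of Itgae and of Itga4, was called in no KO comparison. Normoxia KO cultures averaged 43.1 ± 15.9 CPM and WT cultures 23.5 ± 7.90 CPM (SD, n = 4 each), with overlap and a log2 fold change of 0.87 (edgeR adjusted p = 0.0576). Hypoxia cultures averaged 65.9 ± 13.2 CPM in KO and 60.1 ± 8.18 CPM in WT, and tumors 456 ± 16.5 against 512 ± 16.6 CPM (n = 3 each). Itgav, the alpha chain that pairs with Itgb3, Itgb5 and Itgb8, averaged 28.5 CPM in KO and 26.9 CPM in WT normoxia cultures, 24.8 CPM in KO and 27.8 CPM in WT hypoxia cultures, and 98.4 CPM in KO and 108 CPM in WT tumors. Itgb5, its vitronectin-binding partner, averaged 55.5 CPM in KO and 73.9 CPM in WT normoxia cultures, 52.2 CPM in KO and 72.5 CPM in WT hypoxia cultures, and 317 CPM in KO and 416 CPM in WT tumors. Itgb5 was thus lower on average in KO in all 3 experiments (-0.41, -0.47 and -0.39), with no call in any (edgeR adjusted p = 0.152, 0.129 and 0.103).

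Among the ligands of leukocyte integrins, Icam1 fell in KO cultures and Vcam1 rose in hypoxia. Icam1, the ligand of LFA-1 and Mac-1 whose promoter carries 3 of the marked matches, had 25.3, 24.0, 32.2 and 24.2 CPM in KO and 34.6, 33.1, 34.4 and 39.1 CPM in WT hypoxia cultures. KO3 stood above the other KO libraries but below all WT libraries (-0.42 ± 0.10, edgeR adjusted p = 0.00757). Normoxia gave 39.2, 40.3, 38.1 and 31.4 CPM in KO and 49.4, 53.7, 52.0 and 49.7 CPM in WT, again without overlap (-0.46 ± 0.09, edgeR adjusted p = 0.012). Both calls held with each library left out in turn, and the normoxia value was -0.38 without KO4 and WT3. In tumors the order turned, with 357 to 401 CPM in KO and 300 to 342 CPM in WT, and did not pass (0.19, edgeR adjusted p = 0.19).

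Vcam1, the ligand of VLA-4, had 14.1, 22.6, 24.7 and 22.5 CPM in KO and 8.46, 6.85, 9.66 and 10.9 CPM in WT hypoxia cultures. All KO libraries were above all WT libraries (1.23 ± 0.18, edgeR adjusted p = 0.00043). In normoxia KO cultures held 4.91 to 10.2 CPM and WT cultures 7.24 to 13.4 CPM (-0.53, edgeR adjusted p = 0.151). Without KO4 and WT3 the normoxia value was -0.61 and passed (edgeR adjusted p = 0.0158). Tumor KO samples had 11.1, 15.3 and 17.7 CPM and WT samples 11, 9.08 and 9.78 CPM (0.56, edgeR adjusted p = 0.067). Its receptor chain Itga4 was higher in the same hypoxia cultures, while the partner chain Itgb1 was lower.

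Icam2, a second ligand of LFA-1, and Pecam1, which binds its own kind on leukocytes, platelets and vessels, were called in no KO comparison. Icam2 averaged 17.4 CPM in KO and 14.8 CPM in WT normoxia cultures, 11.1 CPM in KO and 9.15 CPM in WT hypoxia cultures, and 13.1 CPM in KO and 13.8 CPM in WT tumors. Pecam1 averaged 57.1 CPM in KO and 58.3 CPM in WT normoxia cultures, 125 CPM in KO and 110 CPM in WT hypoxia cultures (0.17, edgeR adjusted p = 0.0652), and 47.7 CPM in KO and 47.3 CPM in WT tumors. Endothelial markers, which could accompany both, summed to 53.9 to 70.1 CPM in KO and 47.7 to 69.7 CPM in WT hypoxia cultures with Cldn5 at 0, and to 17.2 to 23.8 against 14.1 to 20.1 CPM in tumors. In normoxia they summed to 14.5 to 19.5 CPM in KO and 22.2 to 33.8 CPM in WT, with Tek, Cldn5 and Ptprb at 0 in both genotypes and Emcn at 0 in KO.

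Selp, the selectin that platelets and endothelium store and release to catch leukocytes, was more than doubled in KO under both culture conditions. Hypoxia cultures had 16.1, 16.6, 12.7 and 17.0 CPM in KO and 7.47, 7.56, 7.35 and 6.49 CPM in WT, far from overlapping (1.11 ± 0.11, edgeR adjusted p = 2.97e-05). Normoxia cultures had 2.04, 1.85, 2.41 and 3.76 CPM in KO and 1.07, 0.818, 1.36 and 1.2 CPM in WT, also without overlap (1.17 ± 0.26, edgeR adjusted p = 0.0181). The normoxia value was 1.02 without KO4 and WT3, and the call was lost without WT1, WT2 or WT4 (adjusted p up to 0.0693). Tumor samples ranged from 8.35 to 11.6 CPM in KO and from 7.21 to 11.9 CPM in WT (0.06). Gm16587 and Gm16548 overlap Selp exons on the other strand and held 139 and 64 counts in normoxia beside 336 for Selp, so part of the normoxia value may be theirs.

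Of the other genes of selectin contact, 14 were tested, mainly the selectin ligands and the enzymes that build their sugars. In normoxia KO cultures 3 were higher and none lower, in hypoxia 3 were higher and 2 lower, and in tumors 1 was higher and 3 were lower. Of all genes tested, 7.13% were higher and 4.17% lower in normoxia, 17.4% and 17.6% in hypoxia, and 3.28% and 3.04% in tumors. Cd24a, a ligand of P-selectin, changed by 0.65 in normoxia and 0.68 in hypoxia but by -0.96 in tumors, and Fut7, the fucosyltransferase of selectin ligands, by 0.57 and 0.66 in the cultures. Tpst1, which sulfates such ligands, fell in hypoxia (-0.87). In tumors Gcnt1 (-0.61) and B4galt1 (-0.31) were lower and St3gal4 was higher (0.54).

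F11r, which encodes the junctional molecule JAM-A that binds LFA-1, was lower in KO in every experiment, with the largest fold change in tumors, where the difference from the cultures was not tested. The gene lies on chromosome 1 from 171437535 to 171464603 on the plus strand (GRCm38). Hypoxia cultures had 29.3, 27.9, 25.6 and 22.1 CPM in KO and 36.4, 55.5, 35.0 and 39.4 CPM in WT (-0.67 ± 0.14, edgeR adjusted p = 0.00443). Normoxia cultures had 12.4, 10.1, 13.7 and 17.4 CPM in KO and 24.6, 18.1, 28.4 and 19.7 CPM in WT (-0.76 ± 0.18, edgeR adjusted p = 0.0222). Tumor samples had 19.8, 20 and 36.6 CPM in KO and 83.9, 86.8 and 124 CPM in WT, so that it fell by 74.2% (-1.95 ± 0.30, edgeR adjusted p = 0.0207). In none of the 3 experiments did a KO library reach a WT library. The hypoxia call held with each library left out. The normoxia call was lost without KO1, KO3 or WT1 (adjusted p up to 0.0777) and was -0.79 without KO4 and WT3, and the tumor call was lost without any sample other than KO3 (adjusted p up to 0.0704) and with no filter on low counts (-1.97, adjusted p = 0.0623).

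JAM-A is also made by epithelium and platelets. The 7 epithelial and carcinoma markers summed to 25.0 to 58.0 CPM in KO and 16.7 to 34.8 CPM in WT tumors, 44.5 to 78.9 against 69.6 to 98.1 CPM in normoxia (Krt8, Krt19 and Krt20 at 0), and 108 to 169 against 247 to 288 CPM in hypoxia. Nearly all of each sum was Cdh1, which averaged 37.9 CPM in KO and 26.2 CPM in WT tumors, 66.4 against 85.3 CPM in normoxia, and 143 against 259 CPM in hypoxia. In hypoxia Cdh1 was called lower (-0.86), Krt18 was called higher (0.73) and Epcam was not called (-0.01), and no epithelial marker was called in normoxia or tumors. In tumors Epcam averaged 0.235 CPM in KO and 0.351 CPM in WT, Krt8 1.98 against 0.320 CPM, Krt18 0.739 against 0.181 CPM, and Krt19 0.960 against 0.208 CPM. Platelet sums, given above, were higher in KO hypoxia cultures. Those of tumors were nearly all Pf4, at 45.0 CPM in KO and 89.5 CPM in WT, with no call (-1.0), while Gp6 was at 0.484 against 0.152 CPM and Gp9 at 0.213 against 0.0121 CPM. The part of either cell type in the level of F11r was not tested.

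Jaml, a junctional receptor that leukocytes use to bind epithelial CXADR, was the member with the smallest adjusted p in normoxia. It had 14.8, 13.5, 20.5 and 26.3 CPM in KO and 5.96, 3.93, 7.09 and 3.45 CPM in WT. All KO libraries were above all WT libraries (1.88 ± 0.26, edgeR adjusted p = 0.00214), and the value was 1.86 without KO4 and WT3. Hypoxia cultures had 11.8 to 23.3 CPM in KO and 11.7 to 18.4 CPM in WT (0.30, not called), and tumors 48.3 to 64.3 against 35.0 to 47.8 CPM (0.46, edgeR adjusted p = 0.063). Alcam, which binds CD6, had 48.7, 51.6, 49.9 and 52.0 CPM in KO and 44.9, 45.8, 45.4 and 42.4 CPM in WT hypoxia cultures. The groups did not overlap but the change was small (0.18 ± 0.06, edgeR adjusted p = 0.0311), and the call was lost without any 1 of KO2, KO3, KO4, WT1, WT3 or WT4 (adjusted p up to 0.0867) and with scaling by library size alone. Its values were 0.35 in normoxia and -0.36 in tumors, where KO3 had 13.8 CPM and the other 5 samples 33.6 to 38.8 CPM.

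Cd47, the signal that protects a cell from phagocytosis, had 645, 714, 606 and 675 CPM in KO and 503, 529, 492 and 533 CPM in WT hypoxia cultures. Every KO library was above every WT library (0.36 ± 0.07, edgeR adjusted p = 0.00166), and the values in normoxia (0.17) and tumors (0.12) did not pass. Cd44, the receptor for hyaluronan, stayed within 426 to 634 CPM in every library of all 3 experiments and was called in no KO comparison. It averaged 501 CPM in KO and 452 CPM in WT normoxia cultures, 562 CPM in KO and 581 CPM in WT hypoxia cultures, and 479 CPM in KO and 468 CPM in WT tumors. Of the partners of CD47, CD44, the junctional molecules and ALCAM, 10 were tested in normoxia, 12 in hypoxia and 11 in tumors. Cd6, the receptor of ALCAM, was higher in normoxia KO cultures (1.37) and lower in KO tumors, at 1.74 ± 0.294 CPM against 6.2 ± 2.1 CPM in WT (SD, n = 3 each, -1.82). Of the T and NK cell markers 4 of 9 tested were called lower in KO tumors and none higher, and their part in the Cd6 value was not tested. In hypoxia KO cultures Cxadr, the partner of Jaml, was higher (0.88), as were Esam (0.71) and the CD47 ligand Thbs1 (0.44), and the actin linker Msn was lower (-0.17).

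The machinery that activates integrins and links them to actin had most of its calls in hypoxia. Of 24 genes tested in hypoxia cultures 13 were higher in KO and none lower, beside 17.4% and 17.6% of all genes. Under scaling by library size alone 9 were higher and 1 lower, with 2185 higher and 3175 lower among all genes. In normoxia 4 of 24 were higher and 1 lower, beside 7.13% and 4.17% of all genes. In tumors none of 25 was higher and 1 was lower (Parvg, -0.49), beside 3.28% and 3.04%. Rasgrp2, which switches on the integrin activator Rap1, had 109 ± 10.7 CPM in KO and 66.6 ± 3.60 CPM in WT hypoxia cultures (SD, n = 4 each, 0.71), and its normoxia value was 0.49. Vcl, which ties talin to actin, changed by 0.69 in hypoxia and 0.43 in normoxia. Lims1 (0.42) and Pxn (0.40) of the adhesion complex were higher in hypoxia and Zyx (0.55) in normoxia, where Parvb was lower (-0.80).

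Tetraspanins, which cluster integrins in the membrane, included Cd9 as the gene lower in KO in each experiment (-1.01 in normoxia, -0.94 in hypoxia and -0.85 in tumors). Of the 8 tested, none was higher and 2 were lower in normoxia, 3 were higher and 2 lower in hypoxia, and none was higher and 1 lower in tumors. Cd81 was lower in both cultures (-0.52 and -0.31), and Cd63 (0.41) and Tspan32 (0.36) were higher in hypoxia. Among matrix ligands of integrins, 1 of 6 was higher and 1 lower in normoxia, 2 of 8 higher and 4 lower in hypoxia, and none of 11 higher and 2 lower in tumors. Shares of all genes beside both lists were 7.13% higher and 4.17% lower in normoxia, 17.4% and 17.6% in hypoxia, and 3.28% and 3.04% in tumors. Spp1, the ligand osteopontin, had 97 ± 8.94 CPM in KO and 293 ± 59.7 CPM in WT normoxia cultures (-1.59), 169 ± 26.6 against 430 ± 86.5 CPM in hypoxia (-1.35), and 289 ± 16.7 against 593 ± 31.3 CPM in tumors (-1.04). Lamc1 was lower in hypoxia (-0.50) and tumors (-0.69), Mfge8 was lower in hypoxia (-0.78), and Col1a1 was higher in both cultures (1.04 in normoxia and 0.61 in hypoxia).

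Of other leukocyte adhesion genes outside the members, 10 were tested in normoxia (2 higher, 2 lower), 12 in hypoxia (4 higher, 3 lower) and 11 in tumors (none higher, 2 lower). Among all genes 7.13% were higher and 4.17% lower in normoxia, 17.4% and 17.6% in hypoxia, and 3.28% and 3.04% in tumors. Cd48 was lower in KO in all 3 experiments (-0.52, -0.46 and -0.55). Ncam1 was higher in both cultures (0.88 in normoxia and 1.27 in hypoxia), as was Itga2b (0.84 and 0.93), and Cd226 was higher in hypoxia (1.16). Pvr was lower in normoxia (-0.55) and Cd84 in tumors (-0.34).

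Levels of subunits were compared with each other as CPM per kilobase of exon (GENCODE M21). The sums hold the member subunits alone. Alpha chains outside the members, such as Itgax and Itga2b, do not enter, so the shares are not of all integrin RNA. Itgb2 made up 85.4% ± 0.518 of the summed beta subunit level in KO and 82.5% ± 1.18 in WT normoxia cultures (SD, n = 4 each), 78.0% ± 0.810 against 74.8% ± 0.805 in hypoxia, and 56.7% ± 0.774 against 57.7% ± 0.292 in tumors (n = 3 each). Itgb7 took 2.44% in KO and 1.47% in WT normoxia cultures and 19.5% in KO and 18.6% in WT tumors. Itgb3 took 3.55% in KO and 2.10% in WT hypoxia cultures, and 0.0528% in KO and 0.0526% in WT tumors.

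On the alpha side, Itgam led among the members in the cultures, with 56.5% in KO and 52.9% in WT normoxia cultures and 57.3% in KO and 53.9% in WT hypoxia cultures. In tumors Itga5 led in its place, with 43.1% ± 2.31 in KO and 39.8% ± 2.34 in WT, and Itgam followed with 24.9% ± 1.05 in KO and 31.0% ± 0.863 in WT. Itga5 held 6.93% of the summed level of the member alpha chains in KO and 9.90% in WT normoxia cultures. In hypoxia it held 6.07% in KO and 10.1% in WT cultures. These levels across tables are a description without a test, since the tumor samples are not a culture. They are labelled as tissue, but whether cells were purified from it is not stated.

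**Figure D3:**
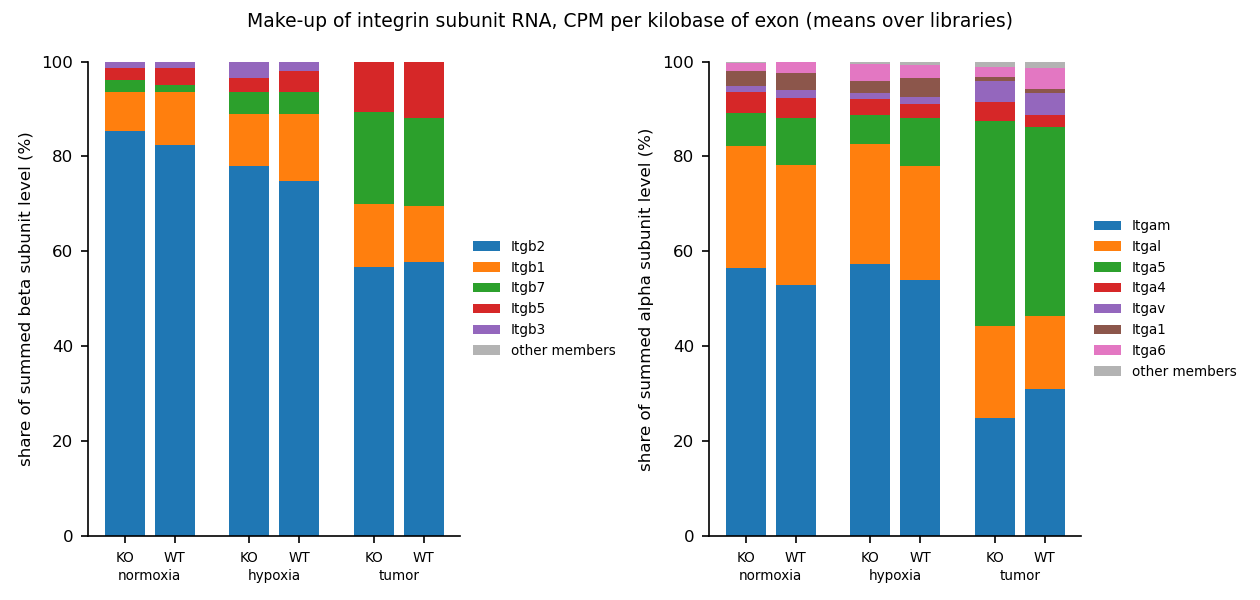
Share in percent of each member integrin subunit in the summed level of the member beta subunits (left) and member alpha subunits (right), from CPM per kilobase of exon (means over libraries), for KO and WT in normoxia, hypoxia and tumor. Subunits outside the members, such as Itgax and Itga2b, are not in the sums. Itgb2 fills 74.8% to 85.4% of the beta bars in cultures and 56.7% and 57.7% in tumors, where Itgb7 and Itga5 take larger shares.

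The effect of the KO differed between hypoxia and normoxia cultures for 3 of 27 members tested in an interaction over the 16 culture libraries. Oxygen cannot be told apart here from culture time, the table, and the cells and growth factors as labelled. The KO effect was more positive in hypoxia for 2 members, beside 0.189% of all genes, and more negative for 1, beside 0.287%. For all genes the split of calls was 29 higher and 44 lower, and 42 and 42 with scaling by library size alone. Itgae had the largest difference (-2.65 ± 0.44, edgeR adjusted p = 0.00822), the interaction following the opposite signs given above, and its call held with each of the 16 libraries left out in turn but was lost with a replicate block (-2.62, edgeR adjusted p = 0.0571). Itgae lies on chromosome 11 from 73090583 to 73147446 on the plus strand (GRCm38). Vcam1 (1.76 ± 0.33, edgeR adjusted p = 0.0227) and Itgb3 (0.73 ± 0.14, edgeR adjusted p = 0.0226) were the others. Both calls were lost without any 1 of KO2, KO4 or WT1 of hypoxia or KO1, KO3 or WT4 of normoxia, Itgb3 also without WT3 of hypoxia or WT1 of normoxia, and Vcam1 also without WT2 of hypoxia (adjusted p up to 0.064 for each). The Vcam1 call was also lost with no filter on low counts (1.78, edgeR adjusted p = 0.0902). Itgb3 lost its call with a fold threshold of 1.2 (edgeR adjusted p = 0.12). Without KO4 and WT3 of normoxia the values were 0.83 for Itgb3, 1.85 for Vcam1 and -2.71 for Itgae, all called. Itga6 was then called as well (0.70, edgeR adjusted p = 0.0288, against 0.56 and 0.398 with all libraries). Jaml had a difference of -1.58 that did not pass (edgeR adjusted p = 0.0754).

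Hypoxia cultures were also set against normoxia cultures within each genotype. There oxygen, culture time, the table, and the cells and growth factors as labelled cannot be told apart. In KO cultures 11 of 26 members tested were higher in hypoxia and 3 lower, beside 25.0% and 23.0% of all genes tested. In WT cultures 16 of 25 were higher and 3 lower, beside 26.1% and 27.3% of all genes. The members' median log2 fold change, hypoxia over normoxia, was 0.18 in KO (-0.01 over all genes) and 0.40 in WT (-0.03). Scaled by library size alone, the all-gene medians became -0.12 in KO and -0.15 in WT. The splits of all calls became 3004 higher and 4484 lower in KO, against 3662 and 3377, and 2970 and 5536 in WT, against 3802 and 3975. The members' own splits then were 10 and 4 in KO and 15 and 5 in WT.

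In both genotypes 9 members were higher in hypoxia and 3 (Itgb2, Icam1 and Icam2) were lower. A share of all genes called in both genotypes is not given, while 25.0% were higher in KO and 26.1% in WT cultures.  Lower were 23.0% in KO and 27.3% in WT. Itga2 had the widest change, at 5.85 ± 1.07 CPM in hypoxia KO and 0.315 ± 0.0265 CPM in normoxia KO cultures (4.20), and 3.14 ± 0.504 against 0.138 ± 0.0496 CPM in WT (4.45; SD, n = 4 each, on a scale common to the 16 culture libraries). Selp changed by 2.76 in KO and 2.80 in WT, Itgb4 by 2.73 in KO and 2.20 in WT, Pecam1 by 1.25 in KO and 1.02 in WT, and F11r by 1.09 in KO and 0.98 in WT. Itga6 (1.23 in KO, 0.65 in WT), Itgb3 (1.16 in KO, 0.40 in WT), Itgb7 (0.74 in KO, 1.46 in WT) and Cd47 (0.69 in KO, 0.48 in WT) complete the 9. In KO, the Itgb7 call was lost without KO1 of hypoxia or KO1 or KO2 of normoxia (adjusted p up to 0.06), the Icam1 call without KO1, KO2 or KO4 of hypoxia (up to 0.0626), and the Itgb2 call without KO2, KO3 or KO4 of hypoxia or KO3 of normoxia (up to 0.0705). Vcam1 was higher in hypoxia in KO cultures (1.76) and had -0.02 in WT, whereas Itgae was higher in WT cultures (2.73) and had 0.10 in KO. Jaml likewise had 1.64 with a call in WT and 0.08 in KO, a contrast that the interaction above did not pass. Platelet and megakaryocyte markers were higher in hypoxia for 8 of 8 tested in each genotype, with medians of 4.80 in KO and 4.56 in WT, and eosinophil markers for 9 of 9 in KO and 8 of 9 in WT. Mast cell and basophil markers were higher for 8 of 8 in KO and 7 of 8 in WT (medians 4.76 and 5.3), and endothelial markers for 2 of 4 and 3 of 4. Of 10 neutrophil markers 1 was higher and 4 lower in KO, and 1 higher and 6 lower in WT. The part of any of these cells in the values of Itga2, Selp, Itgb3, Itgb7 and the other members was not tested.

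**Figure D4:**
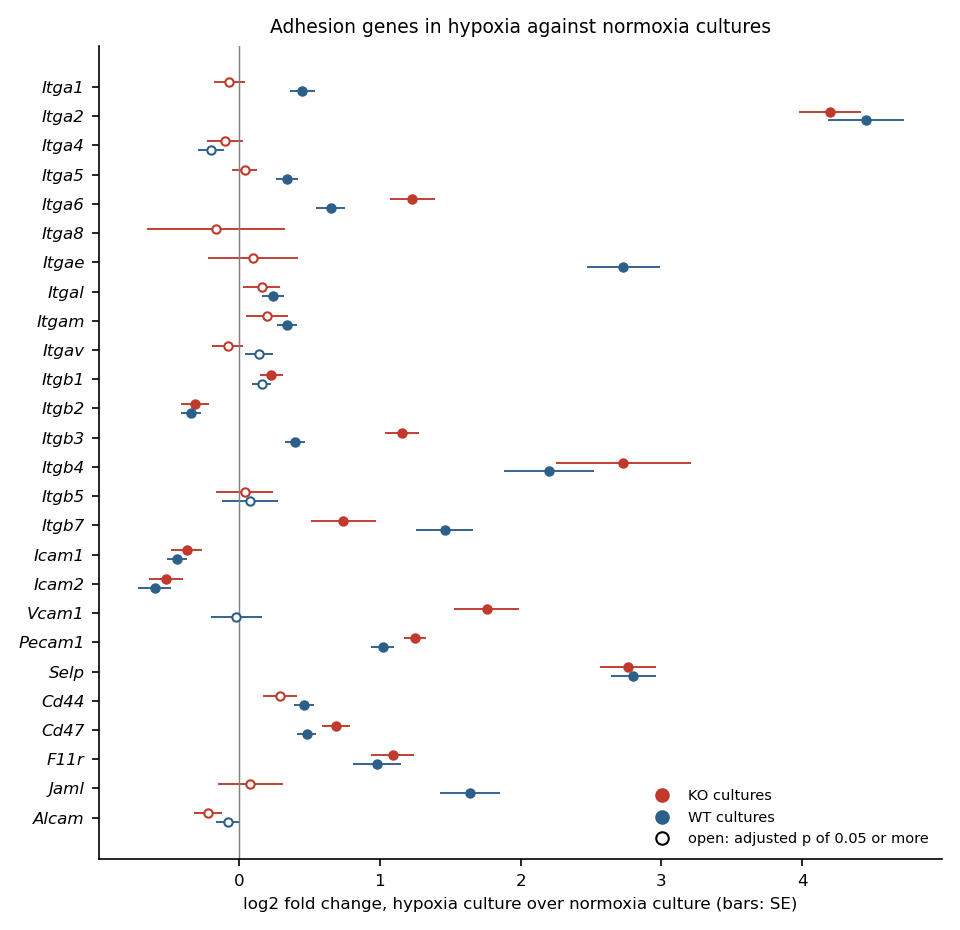
Log2 fold change, hypoxia culture over normoxia culture, of adhesion genes in KO (red) and WT (blue) cultures, with bars for the standard error; open points did not pass the edgeR test. Itga2 and Selp lie far right of 0 in both genotypes, while Vcam1 is filled in KO (1.76) and open in WT (-0.02), and Itgae is filled in WT (2.73) and open in KO (0.10).

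The remaining members were scarce. Itga9, which binds tenascin and VCAM-1, averaged 14.8 CPM in KO and 15 CPM in WT tumors (-0.03) and 0.205 against 0.237 CPM in hypoxia cultures. Itga3, Itga7, Itga8, Itgad, Itgb4 and Itgb8, subunits best known outside leukocytes except for Itgad, stayed at or under 3.73 CPM in every library. Of these, Itga8 had the highest level, at 1.0 to 2.26 CPM in KO and 2.11 to 3.73 CPM in WT tumors (-0.80, edgeR adjusted p = 0.18), and Itgb4 reached 1.2 CPM in a hypoxia KO culture. Itgb8 held 3 counts over the KO and 5 over the WT hypoxia libraries and 2 over the KO and 20 over the WT tumor libraries, too few for the test.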

How the data were processed

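Per the labels' protocols, 100 ng of total RNA went into each SMART-Seq library. The authors deposited raw read counts per gene in 1 table for each experiment, and Subread, featureCounts and DESeq2 with the build GRCm38.p6 are named in the submitters' processing notes, with no versions or strand setting. Every row of the tables held at least 2 counts in all. Columns were matched to samples by name and number. In both culture tables the WT columns say so, and the columns with another code were taken as KO by elimination.

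Counts were tested with edgeR 4.0.16 (quasi-likelihood, robust, filterByExpr by group, TMM scaling, R 4.3.3), each experiment alone and the 16 culture libraries together for the interaction and for hypoxia against normoxia. All genes tested entered the Benjamini-Hochberg adjustment, with a threshold of 0.05. Levels are CPM with TMM-scaled library sizes. The fit was checked on simulated counts. Alternatives were DESeq2 1.42.0 size factors and test, library size alone, no filter, a fold threshold of 1.2, a replicate block, and leaving out libraries.

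The members and the gene lists were chosen with earlier results of these data known. Members called in a KO comparison are given by library where their adjusted p was smallest, uncalled members with a group mean of at least 10 CPM by means, the rest by range, and each pathway list by up to 4 called genes with the smallest p. Some genes of these lists are not reported here by name.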

Additional observations from a re-analysis of the deposited data

Results flagged for a closer look

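In hypoxia KO cultures, Icam1 was at 32.2 CPM in replicate 3 and at 24.0 to 25.3 CPM in the other 3 libraries, a gap of 0.85 of the group's range. Pecam1 was at 102 CPM in replicate 1 of the hypoxia WT cultures and at 113 CPM in the other 3 (0.924), and Itgam was at 500 CPM in replicate 2 of that group and at 450 to 457 CPM in the others (0.86). Each exceeds Dixon's critical value for a group of 4 samples at 95%. Of 100 groups tested, these 3 were marked, where chance marks about 1 in 20.

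The KO effect in hypoxia cultures minus that in normoxia cultures passed the interaction test for Itgae (-2.65), Vcam1 (1.76) and Itgb3 (0.73), on the log2 scale.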

How the results depend on the processing

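Correlations of the deviations of same-numbered KO and WT libraries ranged from -0.057 to 0.372 in normoxia and from -0.159 to 0.019 in hypoxia. In tumors they were 0.08 to 0.218, above those of all other pairs (-0.209 to 0.054). The labels state no pairing and the main tests used none, and whether the tumor samples are paired was not settled. With a replicate block the members called were 11 in normoxia, 15 in hypoxia, 14 in tumors, 2 for the difference, 18 for oxygen in WT and 12 in KO, and 2266 genes were called in tumors and 40 for the difference.

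Members called, 6 in normoxia, became 3 with a fold threshold of 1.2; in hypoxia 17 became 9, and in tumors 4 became 2, against 8 with the DESeq2 test and 8 with no filter. All genes called in normoxia, 1577, became 2399 with the DESeq2 test, 416 with the fold threshold and 2881 without KO4 and WT3 of normoxia. The fold threshold gave 1959 in hypoxia, 333 in tumors, 34 for the difference, 4746 for oxygen in WT and 4437 in KO. Without a filter 1363 genes were called in tumors, and the difference gave 201 with the DESeq2 test and 125 without KO4 and WT3.

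For oxygen within a genotype only 1 of KO4 and WT3 enters, so its omission is among the following. Leaving out 1 library gave 3 to 9 members in normoxia, 14 to 17 in hypoxia, 3 to 8 in tumors, 1 to 4 for the difference, 19 to 21 for oxygen in WT and 11 to 18 in KO. All genes called ranged over 469 (without WT1) to 2233, 3859 to 5703, 444 (without KO1) to 1072, 40 to 100, 6835 to 8397 and 6017 to 8250 in the same order.

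No call changed sign. Values that did were uncalled. In normoxia, Itgav was -0.01 with library size alone and -0.09 without KO4 and WT3, and Cd44 -0.01 without KO4 and WT3. Pecam1 in tumors was -0.01 without a filter. Without KO4 and WT3, the differences of Itgam, Icam1 and Selp were 0.02, -0.03 and 0.11. With library size alone, oxygen values were -0.05 for Itgb5 in WT, and in KO -0.06 for Itga5, -0.01 for Itgae, -0.06 for Itgb5 and -0.01 for Jaml. With 1 library left out the lowest and highest were, in normoxia, -0.24 and 0.04 for Itga6, -0.02 and 0.16 for Itgav, -0.08 and 0.03 for Pecam1; in hypoxia, -0.08 and 0.01 for Cd44, -0.32 and 0.15 for Itga8; in tumors, -0.02 and 0.06 for Itga5, -0.25 and 0.13 for Itga9, -0.14 and 0.14 for Pecam1, -0.12 and 0.23 for Selp. For the difference they were -0.02 and 0.26 for F11r, -0.06 and 0.10 for Icam1, -0.05 and 0.13 for Icam2, -0.01 and 0.26 for Itga4, -0.48 and 0.13 for Itga7, -0.19 and 0.05 for Itgal, -0.26 and 0.01 for Itgam, -0.25 and 0.12 for Itgb5, and -0.18 and 0.21 for Selp. For oxygen in WT they were -0.08 and 0.28 for Itgb5 and -0.15 and 0.18 for Vcam1. For oxygen in KO they were -0.15 and 0.05 for Itga1, -0.20 and 0.06 for Itga4, -0.01 and 0.12 for Itga5, -0.50 and 0.21 for Itga8, -0.16 and 0.32 for Itgae, -0.15 and 0.02 for Itgav, -0.12 and 0.22 for Itgb5, and -0.06 and 0.28 for Jaml. Unless fewer samples or a stricter rule made the change, the cause was not tested. Low counts limit Itgae, Itga2 and Selp in normoxia.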
